A study of Mus musculus with 16 samples.

Results

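The MS4A genes encode small membrane proteins that cross the membrane repeatedly and sit beside receptors at the cell surface. The report follows 8 of them by their symbols in the deposited table, Ms4a4b, Ms4a4c, Ms4a4d, Ms4a6b, Ms4a6c, Ms4a6d, Ms4a7 and Ms4a8a, out of 23356 genes in all. They were measured by RNA-seq in bulk bone marrow-derived dendritic cells (BMDCs), grown from mouse marrow in GM-CSF and IL-4. The question of the study is how the cytosolic sensor STING (gene Tmem173) and the transcription factors IRF1, IRF3 and IRF7 shape the response to c-di-GMP, a bacterial second messenger that binds STING.

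There were 4 genotypes, all on the C57BL/6 background, namely wild-type, Tmem173-/-, Irf1-/- and Irf3/7-/-. The last is labelled as lacking Irf3 and Irf7, but its treated libraries held Irf3 RNA at the wild-type level, so it is called by its label throughout. BMDCs of each genotype were left untreated (NT) or received 25 ug/ml c-di-GMP (CDG) for 18 h by the labels, while the text of the study gives another dose for its RNA-seq. This gives 8 conditions with 2 labelled samples each and 16 samples in all. The deposited values are 1 combined FPKM (fragments counted per kilobase of the gene's transcripts and scaled to library size) for each gene and condition, with the authors' confidence interval, so no replicate values, no standard deviation and no test over samples could be had. The knockouts are of the whole animal and not of dendritic cells alone, and the cells are the loosely attached fraction of a culture and were not sorted to purity. In such bulk RNA, fewer cells of a type and less RNA per cell cannot be told apart.

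CD20 (Ms4a1) of B cells and the beta chain of the high-affinity IgE receptor (Ms4a2) of mast cells are the best known MS4A proteins, and the latter is a signalling subunit of its receptor. The mouse genes of the 4 and 6 groups arose by tandem duplication and lie side by side. Several are expressed by macrophages, monocytes and lymphocytes, where MS4A proteins have been described beside pattern recognition receptors and co-stimulatory receptors.

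The 8 genes lie on chromosome 19 (GRCm38 coordinates, chr19:11067471-11604804 from the Ms4a8a locus to the Ms4a6d locus) and are protein-coding. The start sites of Ms4a4b and Ms4a4c, and those of Ms4a6b and Ms4a6c, are shown because each pair shares runs of bases upstream and because these 4 genes are among the 5 that rose with c-di-GMP. Each stretch is the 200 bases before the start, from the RefSeq promoter table of build GRCm38.p6, on the plus strand and written 5′ to 3′. Capitals mark bases in runs of at least 10 that also occur in the stretch of the paired gene. The positions are chr19:11443358-11443557 for Ms4a4b, chr19:11407461-11407660 for Ms4a4c, chr19:11518359-11518558 for Ms4a6b and chr19:11469168-11469367 for Ms4a6c.
Ms4a4b: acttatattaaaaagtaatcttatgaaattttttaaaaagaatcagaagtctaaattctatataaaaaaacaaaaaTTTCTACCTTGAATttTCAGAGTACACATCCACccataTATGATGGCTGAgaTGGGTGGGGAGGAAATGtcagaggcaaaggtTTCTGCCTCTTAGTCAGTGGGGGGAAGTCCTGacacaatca
Ms4a4c: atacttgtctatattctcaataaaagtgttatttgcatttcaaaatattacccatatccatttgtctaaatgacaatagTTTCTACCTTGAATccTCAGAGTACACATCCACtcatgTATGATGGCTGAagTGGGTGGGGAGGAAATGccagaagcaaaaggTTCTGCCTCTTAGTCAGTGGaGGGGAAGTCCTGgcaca
Ms4a6b: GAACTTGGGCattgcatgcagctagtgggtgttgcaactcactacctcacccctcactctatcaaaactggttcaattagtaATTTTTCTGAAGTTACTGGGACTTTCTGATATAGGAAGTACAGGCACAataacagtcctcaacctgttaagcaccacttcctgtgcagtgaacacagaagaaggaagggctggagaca
Ms4a6c: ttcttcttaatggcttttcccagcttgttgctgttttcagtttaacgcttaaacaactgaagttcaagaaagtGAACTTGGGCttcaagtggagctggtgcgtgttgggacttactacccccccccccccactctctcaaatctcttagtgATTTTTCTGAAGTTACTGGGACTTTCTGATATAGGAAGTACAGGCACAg

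In the Ms4a4b and Ms4a4c stretches, 46.0% of the bases were in shared runs, and a global alignment gave 73.2% identical positions. In those of Ms4a6b and Ms4a6c, 29.0% were in shared runs, and the global alignment gave 38.5% identical positions, the lowest share of the 28 pairs. Their longest shared run had 48 bases, beside a further run of 10 bases, and lies at a different distance from each start, from 118 to 71 bases before that of Ms4a6b and from 49 to 2 bases before that of Ms4a6c. These were the 2 pairs with a shared run of at least 10 bases among 28 pairs of 8 stretches, from 7 genes. Ms4a6d has no entry in the promoter table. The GENCODE M21 models of Ms4a4c and Ms4a6b begin further upstream, at chr19:11404770 and chr19:11516512. The bases before those positions are not shown and were not searched for the letters below.

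The promoter windows, from 250 bases before to 50 after the start, were searched on both strands for letters of interferon and inflammatory elements. The core of the interferon-stimulated response element (GAAA, any 2 bases, GAAA), the GAS letters (TTCNNNGAA) and the ETS-IRF composite (GGAA, any 2 bases, GAAA) were in none of the members' windows. These letters were in 3.44%, 8.30% and 2.72% of all 32851 promoters of the table. The AP-1 letters (TGANTCA), found in 7.81% of all promoters, were in the window of Ms4a8a, in that of the downstream start of Ms4a7 and, past the start, in that of Ms4a4b. The ISRE and ETS-IRF letters can overlap each other, and a missing match says only that these letters are not in the window.

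The targeted genes were read first. Tmem173 had 103 and 118 FPKM in untreated and treated wild-type cells and 8.97 and 7.49 FPKM in Tmem173-/- cells. Irf1 had 25.9 and 116 FPKM in Irf1-/- cells against 149 and 245 FPKM in wild-type cells, and it was called higher with c-di-GMP within Irf1-/- cells. Irf7 had 1.07 and 4.97 FPKM in cells labelled Irf3/7-/- against 15.2 and 687 FPKM in wild-type cells, whereas Irf3 was at 7.74 FPKM in the untreated and at 20.2 FPKM in the treated libraries labelled Irf3/7-/-, the latter above the 15.8 FPKM of treated wild-type cells with overlapping intervals. A gene-level FPKM also counts exons outside a deleted part, so the Irf1 and Irf3 values cannot show which protein was made. The words without Tmem173 and without Irf1 below refer to the genotype labels.

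Dendritic cell markers (Itgax, the MHC class II genes, Cd74, Flt3, Zbtb46, Ccr7 and Cd209a) summed to between 4837 and 8706 FPKM, with 7 or 8 of 8 at 1 FPKM or more, and Cd209a was listed at 0 in treated wild-type cells. Markers of other cells were also present. The summed FPKM ran from 7.68 to 943 for 7 NK cell genes, from 15.8 to 269 for 10 T cell genes, from 68.7 to 600 for 9 macrophage genes in the table, from 1364 to 19260 for 6 neutrophil genes in the table, from 57.2 to 252 for 6 basophil and mast cell genes and from 21.3 to 41.6 for 6 B cell genes.

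To be tested in a comparison, a gene needed 1 FPKM or more in either condition and a status of OK in the pair. It was called higher or lower if log2(FPKM + 0.1) differed by more than 1, which is a change past 2-fold, and if the intervals of the authors were apart. The call is descriptive and carries no p-value, and folds are ratios of FPKM without the added 0.1. In the text, rose, fell, higher and lower refer to called genes, and a value that was not called is given without these words or named as not called.

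Ms4a6d, described in macrophages, was the most abundant of the 8 in every condition on the FPKM scale, which corrects for length. It made up 86.3% of the summed FPKM of the 8 genes in untreated wild-type cells and 48.9% in treated wild-type cells, where the sum of the other members went from 22.6 to 161 FPKM. Ms4a4d (plus strand, chr19:11536849-11558466) stood at the other end. It was listed at 0 in the untreated cells of all 4 genotypes and reached 0.149 FPKM (interval 0.0272 to 0.272) in treated wild-type cells, 0.0139 in Tmem173-/-, 0.0534 in Irf1-/- and 0.0981 in cells labelled Irf3/7-/-. It was below 1 FPKM everywhere and was tested in none of the comparisons.

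**Figure D1:**
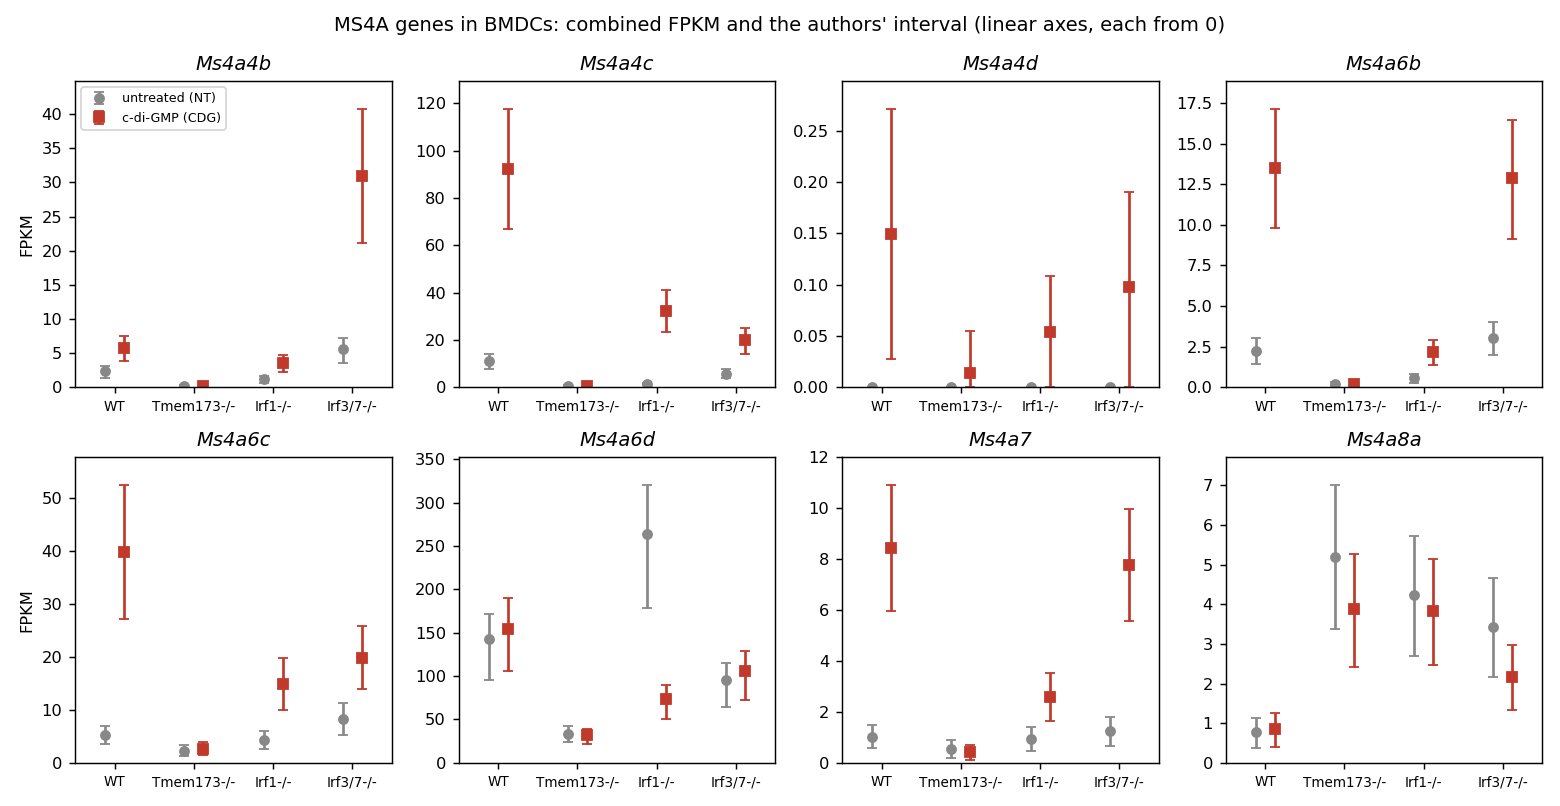
Combined FPKM of each MS4A gene (vertical axes, linear, each from 0) by genotype (horizontal axes), with untreated cells as grey circles and c-di-GMP-treated cells as red squares. Bars are the authors' confidence intervals. Ms4a4b, Ms4a4c, Ms4a6b, Ms4a6c and Ms4a7 are raised by c-di-GMP outside Tmem173-/- cells, Ms4a6d is highest in untreated Irf1-/- cells at 264 FPKM, and Ms4a8a is lowest in wild-type cells.

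In wild-type cells, c-di-GMP raised 5 of the 8 genes. Ms4a4c, Ms4a7, Ms4a6c, Ms4a6b and Ms4a4b were called higher, by 8.36-fold, 8.20-fold, 7.68-fold, 6.03-fold and 2.47-fold in FPKM. Of the others, Ms4a6d was tested and not called, and Ms4a8a and Ms4a4d stayed under 1 FPKM. Over all genes tested, 10.5% were called higher and 9.96% lower by the same rule, and no member was lower. The median difference of the 6 members tested was 2.73 on the log2(FPKM + 0.1) scale, beside 0.00334 over all genes tested, and all 6 were above 1 FPKM without treatment too.

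Ms4a4c (plus strand, chr19:11407661-11427246) encodes a member of the 4 group that is close in sequence to Ms4a4b, and 11.6% of the 35-base windows of its transcripts also occur in those of Ms4a4b. It had 11.03 FPKM (7.52 to 14.1) in untreated and 92.2 FPKM (66.7 to 118) in treated wild-type cells, a log2 difference of 3.05. In Tmem173-/- cells it had 0.624 FPKM (0.346 to 0.900) untreated and 0.655 FPKM (0.346 to 0.946) treated. In Irf1-/- cells it went from 1.37 FPKM (0.831 to 1.89) to 32.4 FPKM (23.1 to 41.1), and in cells labelled Irf3/7-/- from 5.71 FPKM (3.88 to 7.501) to 19.9 FPKM (14.0 to 25.2). Treated wild-type cells stood above all other conditions with no overlap of intervals, while those of treated Irf1-/- cells and treated cells labelled Irf3/7-/- overlapped. The rise within Irf1-/- cells was 23.6-fold from a low start, a log2 difference of 4.46, which is 146% of that in wild-type cells, whereas in cells labelled Irf3/7-/- it was 3.48-fold, or 58.4% of the wild-type log2 difference. Whether these changes differ between genotypes was not tested.

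Ms4a6c (plus strand, chr19:11469368-11482196) had 5.20 FPKM (3.53 to 6.87) and 39.9 FPKM (27.2 to 52.6) in untreated and treated wild-type cells. The values were 2.30 FPKM (1.27 to 3.39) and 2.68 FPKM (1.42 to 3.95) in Tmem173-/- cells, 4.32 FPKM (2.69 to 5.97) and 14.9 FPKM (9.98 to 19.8) in Irf1-/- cells and 8.25 FPKM (5.16 to 11.4) and 19.9 FPKM (13.9 to 25.9) in cells labelled Irf3/7-/-. The treated wild-type value again stood apart from every other. Of the 35-base windows of Ms4a6c transcripts, 50.7% also occur in a transcript that overlaps its locus on the opposite strand, BE692007, and 12.1% in other Ms4a genes, with some windows in both. The reads were 35-bp pairs and the strand setting behind the deposited FPKM is not given in the sources used here, so how far reads of BE692007 enter the level of Ms4a6c is not known.

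Ms4a6b (plus strand, chr19:11518559-11530403), which is also known from T cells, had 2.24 FPKM (1.44 to 3.04) and 13.5 FPKM (9.78 to 17.2) in untreated and treated wild-type cells. It had 0.183 FPKM (0.0471 to 0.306) and 0.172 FPKM (0.0471 to 0.306) in Tmem173-/- cells and 0.559 FPKM (0.283 to 0.825) and 2.14 FPKM (1.39 to 2.88) in Irf1-/- cells. In cells labelled Irf3/7-/- it had 3.02 FPKM (2.004 to 4.01) and 12.9 FPKM (9.15 to 16.5). The value of treated cells labelled Irf3/7-/- lay inside the interval of treated wild-type cells, while the treated Irf1-/- value was no higher than the untreated wild-type value.

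Ms4a7 (minus strand, chr19:11321039-11336146), a gene of macrophages and microglia, likewise had its top values in treated wild-type cells and treated cells labelled Irf3/7-/-. It had 1.03 FPKM (0.585 to 1.47) and 8.44 FPKM (5.97 to 10.9) in wild-type cells, 0.538 FPKM (0.195 to 0.888) and 0.417 FPKM (0.129 to 0.716) in Tmem173-/- cells, 0.943 FPKM (0.471 to 1.42) and 2.59 FPKM (1.64 to 3.54) in Irf1-/- cells and 1.24 FPKM (0.674 to 1.80) and 7.76 FPKM (5.56 to 9.97) in cells labelled Irf3/7-/-, untreated first. The untreated intervals of the 4 genotypes overlapped throughout. After treatment, those of Tmem173-/- and Irf1-/- cells were apart from each other and from the rest. Those of wild-type cells and cells labelled Irf3/7-/- still overlapped. The log2 rise in Irf1-/- cells was 46.8% of that in wild-type cells and that in cells labelled Irf3/7-/- 87.6%. The summed FPKM of the macrophage markers had another order. Untreated and then treated, it was 205 and 303 in wild-type cells but 600 and 560 without Tmem173. It was 109 and 68.7 without Irf1, and it was 206 and 219 in cells labelled Irf3/7-/-, and 7 to 9 of the 9 markers in the table reached 1 FPKM. Single markers differed. In treated Tmem173-/- against treated wild-type cells, 6 of 9 were higher and 1 lower, beside 12.9% and 13.5% of all genes. In treated Irf1-/- cells, 5 of 9 were lower and 1 higher, beside 4.91% and 2.65%. Mertk, like Ms4a7, had its top values in treated wild-type cells, at 16.9 FPKM, and treated cells labelled Irf3/7-/-, at 8.96 FPKM. The part of macrophages in the Ms4a7 values was not tested.

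Ms4a4b (plus strand, chr19:11443558-11463548) is known from T cells and NK cells, where it acts beside co-stimulatory receptors. It had 2.32 FPKM (1.36 to 3.13) and 5.73 FPKM (3.79 to 7.52) in wild-type cells and 0.142 FPKM (0 to 0.253) and 0.232 FPKM (0.0632 to 0.379) in Tmem173-/- cells. In Irf1-/- cells it went from 1.15 FPKM (0.632 to 1.68) to 3.51 FPKM (2.18 to 4.77), and in cells labelled Irf3/7-/- from 5.53 FPKM (3.57 to 7.14) to 31.0 FPKM (21.1 to 40.8). Treated cells labelled Irf3/7-/- thus stood alone at the top, 5.41-fold above treated wild-type cells, and the only other separations between neighbours in the order set Tmem173-/- cells below the rest.

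Markers of T cells and NK cells moved with Ms4a4b in part. The 7 NK cell genes summed to 368 and 343 FPKM in untreated and treated wild-type cells, to 8.74 and 7.68 FPKM without Tmem173, to 8.88 and 10.3 FPKM without Irf1 and to 342 and 943 FPKM in cells labelled Irf3/7-/-. In wild-type cells and cells labelled Irf3/7-/- the sum is mostly Gzma, which had 900 FPKM in treated cells labelled Irf3/7-/- and was listed at 0 in both Tmem173-/- conditions, while Ncr1 was listed at 0 in untreated Tmem173-/- and in both Irf1-/- conditions and stayed under 1 FPKM elsewhere. Single NK cell genes did not all follow the sum. In untreated Tmem173-/- against untreated wild-type cells, 4 of 6 tested were lower, beside 5.95% of all genes. Klrd1 was higher there, at 4.83 against 2.01 FPKM, beside 5.04%. With c-di-GMP in cells labelled Irf3/7-/-, 4 of 6 rose, beside 10.2% of all genes. Klrb1c fell there from 4.05 to 0.618 FPKM and Eomes from 13.6 to 6.36 FPKM, beside 7.68%. The 10 T cell genes summed to 164 and 95.0 FPKM in wild-type cells, 18.4 and 15.8 FPKM without Tmem173, 66.2 and 59.0 FPKM without Irf1 and 180 and 269 FPKM in cells labelled Irf3/7-/-, with 9 of 10 at 1 FPKM or more in cells labelled Irf3/7-/- and 1 of 10 in Tmem173-/- cells and none listed at 0. Without Irf1, that sum is mostly Thy1, at 58.8 and 47.2 FPKM, while Cd3d, a chain of the T cell receptor complex, had 0.993 and 0.645 FPKM there against 11.1 and 7.18 FPKM in wild-type cells, and Cd3e, Cd3g and Cd8a were also lower. With c-di-GMP in cells labelled Irf3/7-/-, 0 of 9 T cell genes tested were called, beside 10.2% of all genes higher and 7.68% lower. Against treated wild-type cells, 8 of 9 were higher in treated cells labelled Irf3/7-/- and 0 lower, beside 4.61% and 2.69%. In wild-type cells, Ms4a4b was higher after c-di-GMP while both sums were smaller. The part of these cells in the Ms4a4b values was not tested.

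**Figure D2:**
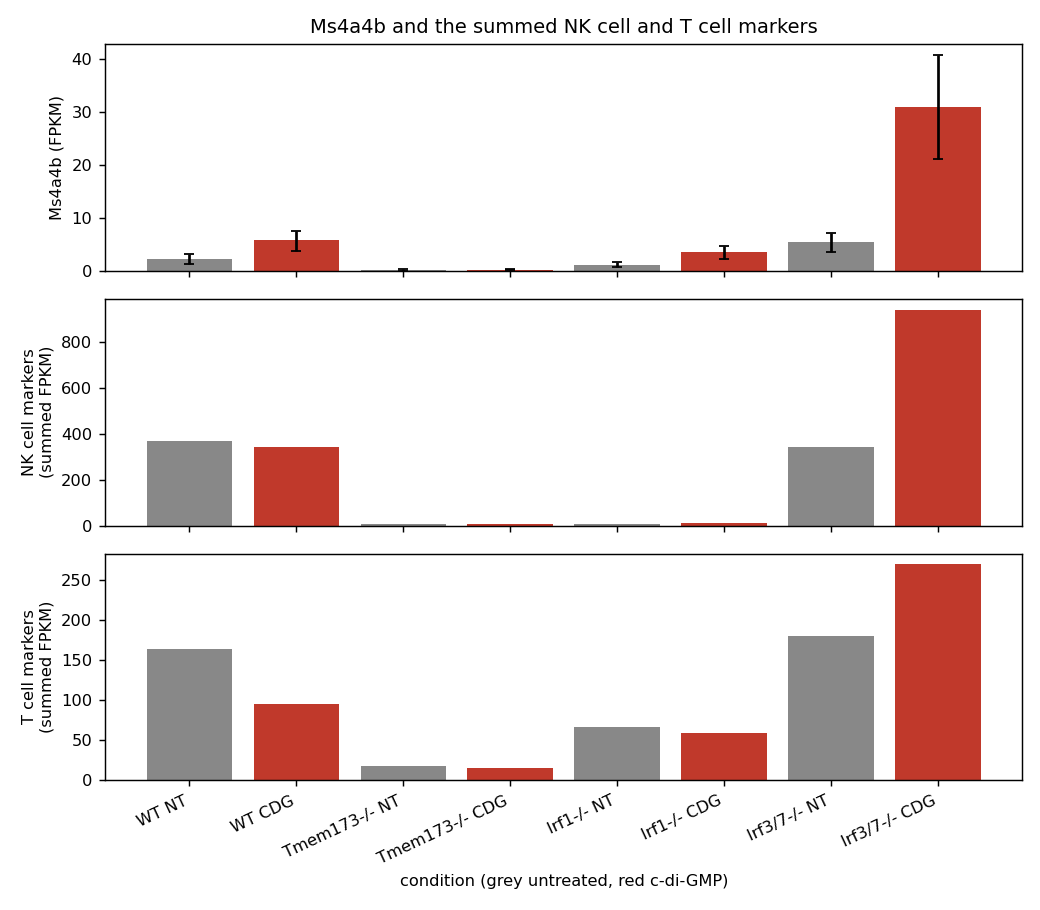
FPKM of Ms4a4b with the authors' interval (top) and summed FPKM of 7 NK cell markers (middle) and 10 T cell markers (bottom) in the 8 conditions, on linear axes from 0, with grey bars for untreated and red bars for c-di-GMP-treated cells. All 3 panels are highest in treated cells labelled Irf3/7-/-, at 31.0, 943 and 269 FPKM, and lowest in Tmem173-/- cells, while in Irf1-/- cells the NK cell markers are at most 10.3 FPKM and Ms4a4b reaches 3.51 FPKM.

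Ms4a6d (minus strand, chr19:11586606-11604804) did not follow the 5 induced genes. It had 143 FPKM (95.8 to 172) in untreated and 154 FPKM (106 to 190) in treated wild-type cells, with overlapping intervals, and 33.0 FPKM (23.8 to 41.9) and 31.6 FPKM (22.1 to 39.5) in Tmem173-/- cells. In cells labelled Irf3/7-/- it had 95.1 FPKM (64.9 to 115) and 106 FPKM (72.2 to 129). In Irf1-/- cells it fell from 264 FPKM (179 to 321) to 73.9 FPKM (50.6 to 90.3), which is 3.57-fold, a log2 difference of -1.83. It was the only member called lower with c-di-GMP in any genotype. The highest and the lowest values of the gene were thus both in knockouts, in untreated Irf1-/- and in Tmem173-/- cells.

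Ms4a8a (minus strand, chr19:11067471-11081103), which has been described in alternatively activated macrophages, was separated by genotype and not by treatment. It had 0.766 FPKM (0.368 to 1.14) and 0.844 FPKM (0.404 to 1.25) in wild-type cells. It had 5.20 FPKM (3.38 to 7.02) and 3.87 FPKM (2.43 to 5.26) in Tmem173-/-, 4.23 FPKM (2.68 to 5.73) and 3.82 FPKM (2.46 to 5.15) in Irf1-/- and 3.43 FPKM (2.17 to 4.67) and 2.16 FPKM (1.32 to 2.98) in cells labelled Irf3/7-/-. No knockout interval overlapped a wild-type interval, and it was not called in any c-di-GMP comparison. All of the comparisons with wild-type cells of one treatment share the same wild-type value.

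Within the knockouts, the c-di-GMP comparisons gave these counts. In Tmem173-/- cells, 3 members were tested (Ms4a6c, Ms4a6d and Ms4a8a) and none was called, beside 0.0552% of all genes tested called in either direction. In Irf1-/- cells, 5 of 7 tested were called higher, beside 9.67% of all genes, and 1, Ms4a6d, lower, beside 7.81%. In cells labelled Irf3/7-/-, 5 of 7 tested were called higher, beside 10.2% of all genes, and none lower, beside 7.68%. The genes that rose in Irf1-/- cells and in cells labelled Irf3/7-/- were the same 5 as in wild-type cells. Ms4a6b and Ms4a7 of Irf1-/- cells reached 1 FPKM after treatment alone and were admitted by that value. The rise of Ms4a7 in Irf1-/- cells was no longer called with a pseudocount of 1 FPKM, at a log2 difference of 0.89.

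**Figure D3:**
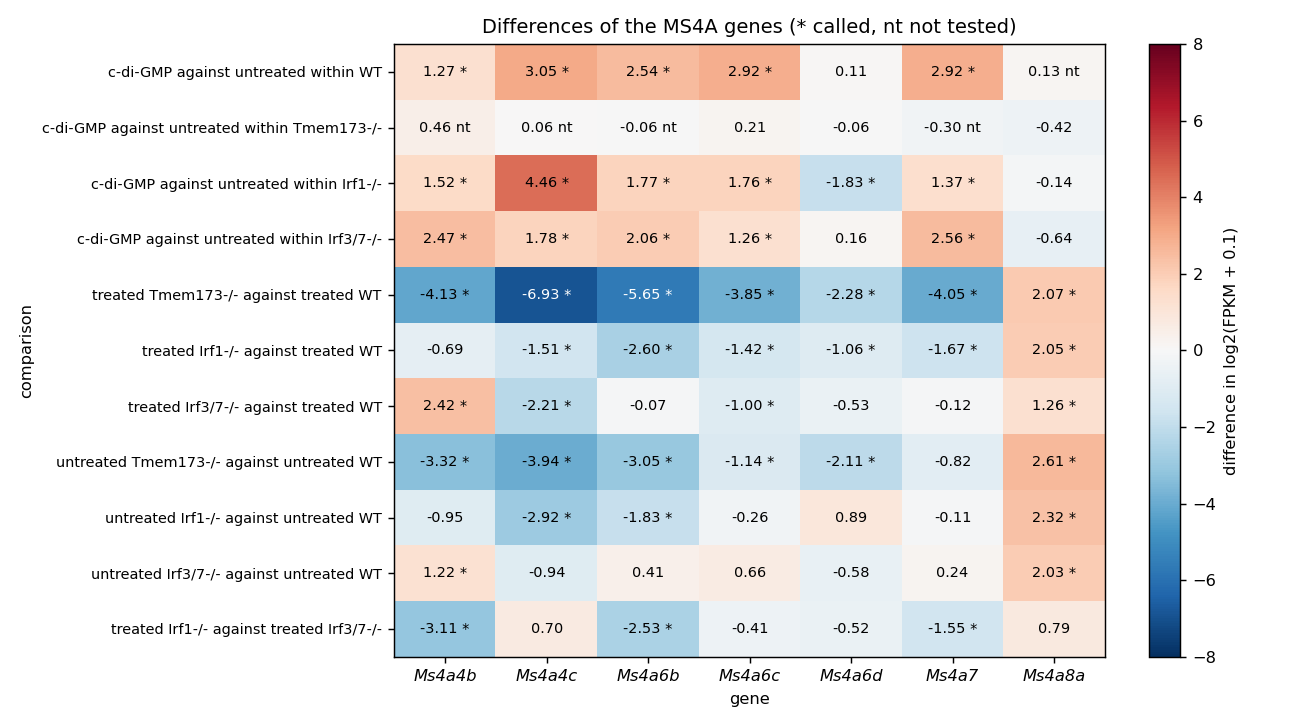
Differences in log2(FPKM + 0.1) of the 7 MS4A genes that reached 1 FPKM (columns) in 11 comparisons (rows), red for higher and blue for lower in the condition named first. A star marks called genes and nt marks genes not tested in that comparison. The lowest value is -6.93 for Ms4a4c in treated Tmem173-/- against treated wild-type cells, and Ms4a8a is called higher in every comparison of a knockout with wild-type cells.

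After treatment, the levels of the members in Tmem173-/- cells were lower than in wild-type cells for all tested members but Ms4a8a. Of 7 tested, 6 were called lower, beside 13.5% of all genes, and Ms4a8a was called higher, beside 12.9%. Ms4a4b, Ms4a4c, Ms4a6b and Ms4a7 reached 1 FPKM in treated wild-type cells alone, and Ms4a8a in Tmem173-/- cells alone, so these 5 were admitted by the condition in which they are high and their count supports nothing. The fall was 141-fold for Ms4a4c, 78.6-fold for Ms4a6b, 24.7-fold for Ms4a4b, 20.3-fold for Ms4a7, 14.9-fold for Ms4a6c and 4.87-fold for Ms4a6d. The Ms4a4b, Ms4a4c, Ms4a6b and Ms4a7 values in treated Tmem173-/- cells are below 1 FPKM, so the folds of these genes are imprecise. For Ms4a6b the bounds of the intervals allow 31.9-fold to 364-fold. The rise of Ms4a8a was 4.59-fold.

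In treated Irf1-/- cells, 5 of 7 members tested were called lower than in treated wild-type cells, beside 4.91% of all genes. These were Ms4a6b, by 6.31-fold, Ms4a7, by 3.26-fold, Ms4a4c, by 2.85-fold, Ms4a6c, by 2.68-fold, and Ms4a6d, by 2.08-fold. Ms4a4b was not called, with a log2 difference of -0.69 and overlapping intervals. Ms4a8a was called higher, by 4.52-fold, beside 2.65% of all genes. As it stayed under 1 FPKM in wild-type cells, it was tested against them only through its level in the knockouts, in these and all other comparisons with wild-type cells.

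In treated cells labelled Irf3/7-/-, 2 of 7 members tested were called lower than in treated wild-type cells, beside 2.69% of all genes, and 2 higher, beside 4.61%. Ms4a4c was lower by 4.64-fold. Ms4a6c was lower by 2.01-fold, at a log2 difference of -1.004 just past the threshold. Ms4a4b was higher by 5.41-fold and Ms4a8a by 2.56-fold. The calls of Ms4a6c and Ms4a8a were lost with a pseudocount of 1 FPKM, at log2 differences of -0.97 and 0.78, and that of Ms4a6c also with median centring, at -0.98. Ms4a6b, Ms4a7 and Ms4a6d were not called, with log2 differences of -0.07, -0.12 and -0.53.

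Treated Irf1-/- cells and treated cells labelled Irf3/7-/- were also compared with each other. Ms4a4b, Ms4a6b and Ms4a7 were lower in Irf1-/- cells, by 8.84-fold, 6.01-fold and 2.995-fold, beside 6.62% of all genes tested, and no member was called higher, beside 3.22%. Ms4a4c, which had the largest fall of the members in treated cells labelled Irf3/7-/-, was not called, with a log2 difference of 0.70, and neither were Ms4a6c, Ms4a6d and Ms4a8a.

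The genotypes already differed without c-di-GMP. In untreated Tmem173-/- cells, Ms4a4b, Ms4a4c, Ms4a6b, Ms4a6c and Ms4a6d were called lower than in untreated wild-type cells, by 16.3-fold, 17.7-fold, 12.3-fold, 2.26-fold and 4.32-fold, beside 5.95% of all genes tested, and Ms4a8a was higher by 6.79-fold, beside 5.04%. Ms4a4b, Ms4a4c, Ms4a6b and Ms4a7, the last not called, reached 1 FPKM in this comparison in wild-type cells alone. Their folds rest on low values in Tmem173-/- cells and are imprecise, and for Ms4a4b the lower bound there was 0. The calls of Ms4a4b and Ms4a6b were lost with a minimum of 5 FPKM. In untreated Irf1-/- cells, Ms4a4c was lower by 8.05-fold and Ms4a6b by 4.01-fold, beside 3.52% of all genes, and Ms4a8a was higher by 5.52-fold, beside 1.26%. Ms4a6b and Ms4a7, the latter not called, again reached 1 FPKM in wild-type cells alone. Ms4a6d was 1.85-fold above untreated wild-type cells there, with intervals apart but under the fold threshold. In untreated cells labelled Irf3/7-/-, Ms4a4b was higher by 2.38-fold and Ms4a8a by 4.48-fold, beside 1.17% of all genes, and no member was called lower, beside 0.863%. With a pseudocount of 1 FPKM, the calls of Ms4a6c in untreated Tmem173-/- cells and of Ms4a4b in untreated cells labelled Irf3/7-/- were lost, at log2 differences of -0.91 and 0.98.

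A list of 25 interferon-induced genes gives a reference for the pathway, since STING drives type I interferon. With c-di-GMP, 23 of 25 were called higher in wild-type, 25 of 25 in Irf1-/- and 21 of 25 in cells labelled Irf3/7-/-. The shares over all genes tested were 10.5%, 9.67% and 10.2%. Irf7, targeted in cells labelled Irf3/7-/-, is on the list. Against treated wild-type cells, 25 of 25 were lower in treated Tmem173-/- cells, 7 of 25 in treated Irf1-/- cells and 6 of 25 in treated cells labelled Irf3/7-/-. Over all genes, 13.5%, 4.91% and 2.69% were lower in these comparisons. Without treatment, 23 of 25 were already lower than in wild-type cells in Tmem173-/-, 18 of 25 in Irf1-/- and 8 of 25 in cells labelled Irf3/7-/-. The shares over all genes there were 5.95%, 3.52% and 0.863%. For 18 of the 25, the rise within Irf1-/- cells thus started from a lower untreated level. The median log2 difference in treated Irf1-/- cells was -0.30 for the interferon list, -1.42 for the members tested and 0.02 for all genes tested, values that describe the lists and were not tested against each other.

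Of the 7 genes whose proteins have been described as partners of MS4A proteins, 6 were tested in wild-type cells. Clec7a, the beta-glucan receptor Dectin-1, rose with c-di-GMP from 367 to 839 FPKM, and Trem2, a lipid receptor of macrophages, fell from 44.0 to 12.3 FPKM. That is 1 higher and 1 lower of 6, beside 10.5% and 9.96% of all genes. Fcer1a, the alpha chain of the IgE receptor, rose from 2.42 to 5.61 FPKM in Irf1-/- cells and Trem2 fell, beside 9.67% and 7.81% of all genes. In cells labelled Irf3/7-/-, Clec7a, Fcer1g and Tnfrsf18 rose and Trem2 fell, beside 10.2% and 7.68%. Clec7a and Tnfrsf18 were lower in treated Irf1-/- than in treated wild-type cells, beside 4.91% of all genes. Tnfrsf18, the co-stimulatory receptor GITR, had 37.0 FPKM in treated wild-type and 57.5 FPKM in treated cells labelled Irf3/7-/-, a difference that was not called.

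Genes around the cluster were called about as often as genes at large. Of 55 genes other than Ms4a genes within 500 kb of the Ms4a loci, 20 were tested in wild-type cells with c-di-GMP, and 2 were called higher and 3 lower, beside 10.5% and 9.96% of all genes. AW112010, a long noncoding RNA next to Ms4a8a whose lower end lies 19.9 kb from that of Ms4a8a, rose by 1.99 on the log2 scale, and Slc15a3, a lysosomal peptide transporter, rose by 1.15. Cd5, Cd6 and Mrpl16 fell, the former pair being T cell surface receptors. In treated Irf1-/- cells, AW112010 was the single neighbour of 18 tested that was called, lower by 3.26 on the log2 scale, beside 4.91% of all genes.

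**Figure D4:**
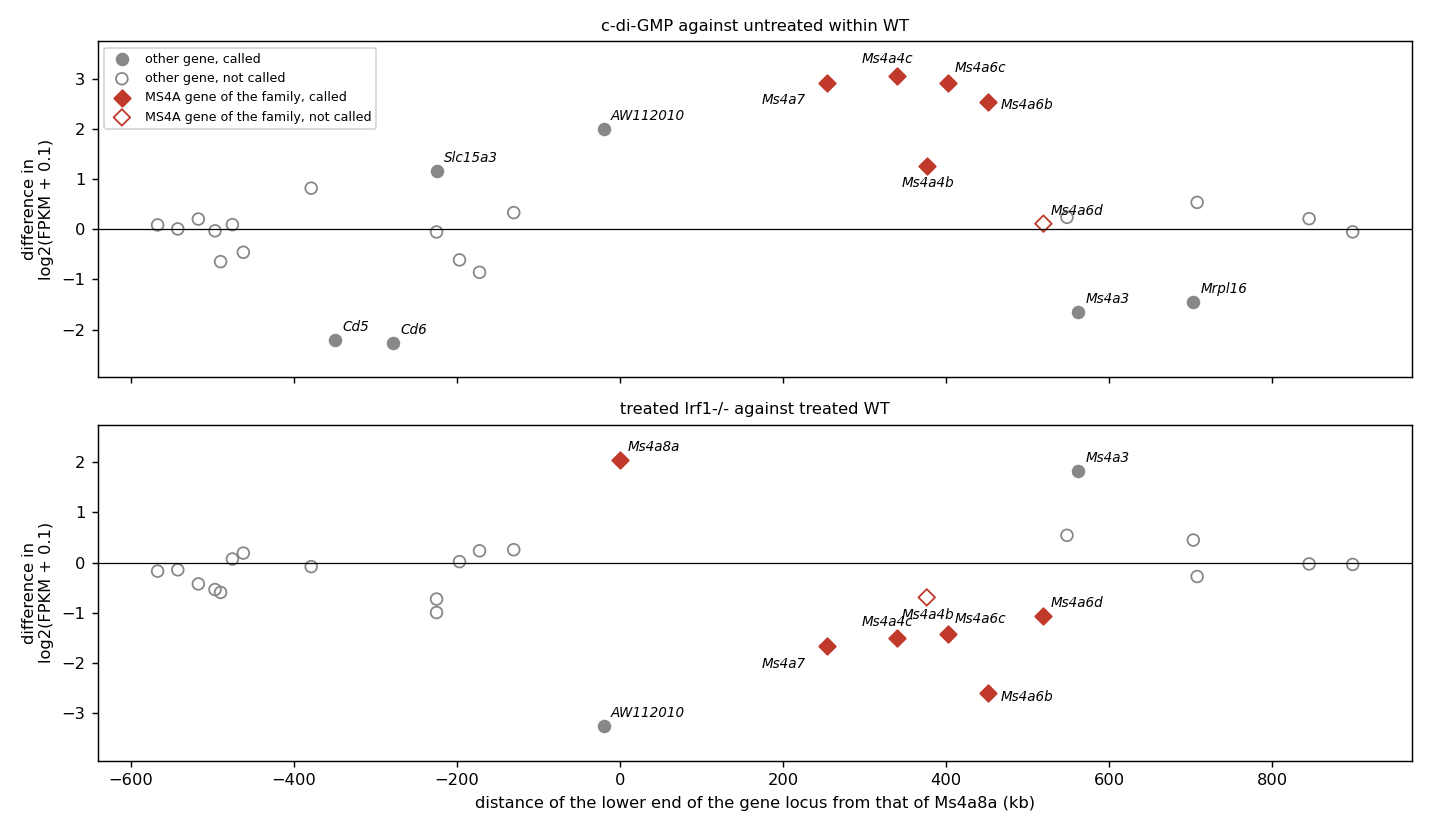
Difference in log2(FPKM + 0.1) (vertical axes) of genes tested around the MS4A cluster against the distance of the lower end of their locus from that of Ms4a8a in kb (horizontal axis), for c-di-GMP in wild-type cells (top) and for treated Irf1-/- against treated wild-type cells (bottom). Red diamonds are the 8 MS4A genes where tested, grey circles are other genes, and filled symbols are called. The 5 induced members lie from Ms4a7 to Ms4a6b, and Ms4a8a and Ms4a3 are above 0 in the bottom panel.

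Across the 8 conditions, the members fell into a group of 5 and 2 single genes, described by Pearson's r of log2(FPKM + 0.1). Ms4a6c and Ms4a7 had r = 0.97 and Ms4a4c and Ms4a6c r = 0.95, and the 5 induced genes had r between 0.80 and 0.97 with each other. Ms4a6d had r between 0.46 and 0.55 with them, and Ms4a8a had negative r with all other members. The points share libraries and normalization, and the correlations are descriptions.

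The genes most alike in pattern, among 7376 genes with at least 10 FPKM in a condition, were found by the same r. They were Ppme1, Tox4 and Edn1 for Ms4a4b, Apobec3, Parp11 and Limk2 for Ms4a4c, Fgl2, Pla2g16 and Ntng2 for Ms4a6b, Rbbp8, Usp40 and Rnf31 for Ms4a6c and Rnf185, Nxf1 and Psmf1 for Ms4a7, with r between 0.98 and 0.99. Ms4a6d was most like Mir5109, Ramp3 and Pecam1, with r from 0.94 to 0.99, and Mir5109 is a microRNA entry with 19434 to 59649 FPKM, a range at which a short entry is hard to quantify. Ms4a8a was most like Ufm1, Mpo and E230016K23Rik. Because r takes no account of the size of a change, some of the genes named here varied little. Ufm1 ran only from 14.0 to 16.6 FPKM and Nxf1 from 43.1 to 71.8 FPKM, whereas Edn1 ran from 5.65 to 226 FPKM. Mpo, the myeloperoxidase of neutrophil precursors, had 3.70 and 2.90 FPKM in wild-type cells and between 12.6 and 24.7 FPKM in the knockouts, while the summed neutrophil markers were 3922 and 1801 FPKM in wild-type cells, 19260 and 13913 FPKM without Tmem173, 2395 and 1364 FPKM without Irf1 and 2209 and 1396 FPKM in cells labelled Irf3/7-/-, with no marker in the table listed at 0. That sum is almost wholly S100a8 and S100a9, and the S100a8 FPKM lay above its own interval in all 8 conditions. Elane, the neutrophil elastase of the same precursors, had 2.45 and 0.687 FPKM in wild-type cells, 40.8 and 31.4 FPKM without Tmem173, 16.4 and 8.11 FPKM without Irf1 and 8.61 and 1.58 FPKM in cells labelled Irf3/7-/-, with intervals that reach down to 0 in all 8 conditions. Ltf and Camp, also on the neutrophil list, had another order than Mpo and Ms4a8a. Both were higher without Tmem173 than in wild-type cells, untreated and treated. In treated Irf1-/- cells both were lower, Ltf at 3.33 against 12.2 FPKM and Camp at 3.96 against 37.0 FPKM. Camp was also lower in untreated Irf1-/- cells, and Ltf in untreated and treated cells labelled Irf3/7-/-. The part of neutrophils and their precursors in the Ms4a8a values was not tested.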

How the data were processed

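RNA-seq was made by the authors from bulk BMDCs with a stranded mRNA kit and 35-bp paired reads. The deposited table holds FPKM values, which the authors computed with Cuffdiff (version 1.06 and build mm9 in the submitters' processing notes) and combined over the samples of each condition, with the bounds of a confidence interval and a status. The loci in the table lie at GRCm38 positions, and GRCm38 annotation (GENCODE M21 and RefSeq GRCm38.p6) was used. The methods of the study name a setting for opposing-strand, paired libraries for a separate step in SeqMonk, whereas the aligner and the strand setting of Cuffdiff are not given in the sources used here. A further 4 columns, for another knockout, were not used.

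Genes were read by symbol from the whole table of 23356 genes, 23245 of them with the status OK in all conditions. Values were transformed as log2(FPKM + 0.1), and 11 comparisons were called over the whole table by the rule in the report (more than 2-fold, intervals apart, at least 1 FPKM), with Python 3.11.15, pandas 2.3.3 and numpy 2.4.6. No p-value was computed, because the table holds no replicate values. The calls were also run on simulated data whose noise was drawn from the authors' intervals. The changes planted there were larger than the call threshold and lay in genes above the minimum FPKM. That run therefore cannot show how the calls fare with spread between replicates, with smaller changes or at low FPKM. The labels do not say whether the 2 samples of a condition came from separate mice.

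Depth cannot be read from FPKM. The bounds of Ms4a4b, Ms4a4c, Ms4a4d, Ms4a6b and Ms4a8a were whole multiples of one step per gene, within 0.02 of a step, but of their FPKM values at most 1 of 8 was, so whole reads were not recovered. The authors' interval is therefore the precision given, and its median half-width was between 25.2% and 25.7% of the FPKM in 4710 genes at 10 FPKM or more in all conditions. In 196 genes of the table, none of them a member but S100a8 among them, an FPKM lay outside its own interval.

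The members, the gene lists, the cell type markers and the motifs were chosen with earlier results of these data known. Named genes are the 8 members, other Ms4a genes at 1 FPKM or more, the 3 genes most like each member, called neighbours within 500 kb, the targeted genes, called partner genes and the markers beside a result. Shared sequence was counted as 35-base windows of GENCODE transcripts found in transcripts of another gene. The upstream pairs that are printed were chosen after all 28 pairs had been compared. The 9 alternatives were other pseudocounts, minimum values and fold thresholds, median centring, the fold change alone and a z value from the intervals.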

Additional observations from a re-analysis of the deposited data

Results flagged for a closer look

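Ms4a6d changed in a different way in Irf1-/- cells than in the other genotypes with the same treatment. Its difference in log2(FPKM + 0.1) between c-di-GMP-treated and untreated cells was -1.83 in Irf1-/- cells, where it was called lower, against 0.11 in wild-type cells, where it was not called. Against cells labelled Irf3/7-/-, with a difference of 0.16 that was not called, the same value of -1.83 stood out. Each condition has 1 combined value, and the difference between the genotypes was not tested. Untreated Irf1-/- cells had the highest Ms4a6d level, 264 FPKM, and treated Irf1-/- cells had 73.9 FPKM, with intervals that do not overlap.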

How the results depend on the processing

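Of 88 pairs of a member and a comparison, 47 were called, and 23 of the calls held under all 9 alternatives. No difference changed sign. With a fold threshold of 4, the called members were 1 in place of 6 for c-di-GMP in Irf1-/- cells, 3 in place of 5 in cells labelled Irf3/7-/-, 2 in place of 6 in treated Irf1-/- against treated wild-type cells, 2 in place of 4 in treated Irf3/7-/- against treated wild-type cells, and 1 in place of 2 in untreated Irf3/7-/- against untreated wild-type cells. With a minimum of 5 FPKM, they were 3 in place of 6 for c-di-GMP in Irf1-/- cells, 1 in place of 3 in untreated Irf1-/- cells and 1 in place of 2 in untreated cells labelled Irf3/7-/-. With a pseudocount of 1 FPKM, they were 2 in place of 4 in treated Irf3/7-/- and 1 in place of 2 in untreated cells labelled Irf3/7-/-. A stricter threshold and a higher minimum test or call fewer genes by construction. The order of genes most like a member shifted with a pseudocount of 1 FPKM. No paired analysis was possible because the replicates of a condition are combined in the table, and for the same reason no replicate could be left out. Depth was not known, and values near the pseudocount carry wide intervals.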

Other observations

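The table holds 8 further Ms4a genes, 3 of which reached 1 FPKM. Ms4a3, known from granulocyte and monocyte precursors, had 14.1 FPKM (9.16 to 17.6) and 4.45 FPKM (2.71 to 5.82) in untreated and treated wild-type cells and was called lower with c-di-GMP. It had 49.96 FPKM (34.0 to 61.7) and 37.5 FPKM (25.1 to 48.6) in Tmem173-/- cells, 27.0 FPKM (17.8 to 35.05) and 16.0 FPKM (10.5 to 21.3) in Irf1-/- cells and 29.0 FPKM (19.2 to 37.7) and 14.5 FPKM (9.47 to 17.8) in cells labelled Irf3/7-/-. After treatment it was called higher than in wild-type cells in each knockout, by 8.43-fold, 3.59-fold and 3.27-fold, as Ms4a8a was.

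Ms4a2, the beta chain of the IgE receptor, had between 1.81 and 3.36 FPKM in wild-type, Tmem173-/- and Irf1-/- cells and 5.52 FPKM (4.08 to 6.95) and 7.40 FPKM (5.58 to 9.22) in cells labelled Irf3/7-/-. It was called higher in Irf3/7-/- than in wild-type cells without treatment, by 2.88-fold, and with treatment, by 3.25-fold. The 6 basophil and mast cell markers, which include it, summed to 165 and 252 FPKM in cells labelled Irf3/7-/- and to at most 89.6 FPKM in the other genotypes. Ms4a1, the B cell gene of CD20, reached 1 FPKM in Tmem173-/- cells, at 1.64 and 1.63 FPKM. Ms4a10, Ms4a13 and Ms4a5 were listed at 0 in all 8 conditions.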
